A study of Homo sapiens with 8 samples.

Results

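Open chromatin was compared between the 2 HEK293T lines that stand at opposite ends of this series, a line carrying EZH2 Y641F and a line carrying EZH2 H689A/F667I, without reference to the wild-type line. HEK293T is a transformed human embryonic kidney line, and ATAC-seq uses the Tn5 transposase to cut and tag DNA that is not wrapped tightly in nucleosomes. Of the 8 libraries of the series, 4 were used, 2 per line. A peak is a stretch of DNA called as cut more often than its surroundings, and on chromosomes 1 to 22 every set of overlapping peaks of these 4 lists was joined, which gave 66435 regions. A region was called Y641F-only when it held a peak of both Y641F libraries and of neither H689A/F667I library, H689A/F667I-only in the reverse case, and shared when all 4 libraries had a peak. There were 353 Y641F-only regions, 0.531% of the regions, 7055 H689A/F667I-only regions, 10.6%, and 19131 shared regions. The remaining regions were open in some other combination of the 4 libraries.

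According to the study's methods, each line was made by lentiviral delivery of an EZH2 construct into HEK293T cells and blasticidin selection intended to give monoclonal populations, so that a line may stand for a single clone. The endogenous EZH2 gene was not deleted, and each line therefore also kept its own wild-type EZH2. The study treats EZH2 Y641F and EZH2 A677G as gain-of-function and the double mutant EZH2 H689A/F667I as loss-of-function. The other lines carried EZH2 WT or EZH2 A677G, and their 4 libraries served here only as an independent readout. The methods describe the libraries of a line as independent biological replicates.

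EZH2 is the catalytic subunit of Polycomb repressive complex 2 (PRC2), which methylates lysine 27 of histone H3. The trimethylated form, H3K27me3, is bound by PRC1 complexes and marks silent genes, among them many developmental regulators such as HOX, FOX, SOX and WNT genes. Y641 lies in the catalytic SET domain, and substitutions there favour the step from dimethylation to trimethylation, whereas other substitutions in that domain impair catalysis.

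The lists differed in length before any region was classified. The Y641F lists held 25423 and 35380 peaks, covering 14.6 and 21.6 Mb, and the H689A/F667I lists held 46317 and 47164 peaks, covering 28.7 and 29.3 Mb. Both Y641F lists were shorter than both H689A/F667I lists, and Y641F replicate 1 was the shortest list of the series. The mean log2 difference was -0.64 for peak number and -0.71 for covered length (exact two-sided permutation p = 0.33 for each, the smallest p that 2 against 2 libraries can give). Peaks within 1 kb of a start site of any protein-coding gene, called promoter peaks, made up 45.6% and 38% of the Y641F lists and 32.4% and 31.9% of the H689A/F667I lists, a difference of 9.70 percentage points (exact permutation p = 0.33). Read depth is unknown, and a region without a called peak is not a region without signal. The classes were therefore formed again from the same number of peaks in each list, taken by -log10 p, with the number set so that all of Y641F replicate 1 was kept. The peaks at that limit had a -log10 p of 3.31 and 4.66 in the Y641F lists and of 5.52 and 5.59 in the H689A/F667I lists. The promoter shares with equal numbers were 45.6%, 45.7%, 44.9% and 45.2%, and the difference between the lines shrank to 0.628 percentage points.

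Sequences from 3 strong regions of each class outside promoters are shown to make the classes concrete. They come from the strict class, which required a peak within this equal number in both libraries of one line and no peak of any strength in the other line. Each is the plus strand of GRCh38 around the centre of the region, with CpG dinucleotides in capitals. The Y641F-only windows were chr17:38867732-38867911 in intergenic sequence nearest to LASP1, chr1:100355015-100355194 in an intron of CDC14A and chr9:18791156-18791335 in an intron of ADAMTSL1. They held 4, 1 and 4 CpG sites and 48.3%, 49.4% and 53.3% GC.
LASP1 region: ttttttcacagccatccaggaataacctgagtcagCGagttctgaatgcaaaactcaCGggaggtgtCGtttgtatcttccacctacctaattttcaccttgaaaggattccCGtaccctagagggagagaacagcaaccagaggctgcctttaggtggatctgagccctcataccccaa
CDC14A region: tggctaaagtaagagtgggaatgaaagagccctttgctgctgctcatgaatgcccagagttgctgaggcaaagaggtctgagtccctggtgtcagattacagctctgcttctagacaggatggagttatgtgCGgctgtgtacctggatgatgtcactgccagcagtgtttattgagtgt
ADAMTSL1 region: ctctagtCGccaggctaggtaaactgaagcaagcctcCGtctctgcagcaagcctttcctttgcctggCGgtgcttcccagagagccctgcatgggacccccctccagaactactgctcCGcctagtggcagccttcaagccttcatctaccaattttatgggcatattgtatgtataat

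The H689A/F667I-only windows were all intergenic, chr22:50544245-50544424 nearest to KLHDC7B, chr19:1897835-1898014 nearest to SCAMP4 and chr16:27375094-27375273 nearest to IL4R. They held 24, 6 and 3 CpG sites and 76.1%, 57.2% and 52.2% GC.
KLHDC7B region: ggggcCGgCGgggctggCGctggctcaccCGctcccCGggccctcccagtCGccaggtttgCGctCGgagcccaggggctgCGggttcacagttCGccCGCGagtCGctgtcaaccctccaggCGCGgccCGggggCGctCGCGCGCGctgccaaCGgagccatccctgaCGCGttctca
SCAMP4 region: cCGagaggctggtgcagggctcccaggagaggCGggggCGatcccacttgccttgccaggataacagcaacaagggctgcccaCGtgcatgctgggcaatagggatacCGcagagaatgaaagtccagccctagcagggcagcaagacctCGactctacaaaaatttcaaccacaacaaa
IL4R region: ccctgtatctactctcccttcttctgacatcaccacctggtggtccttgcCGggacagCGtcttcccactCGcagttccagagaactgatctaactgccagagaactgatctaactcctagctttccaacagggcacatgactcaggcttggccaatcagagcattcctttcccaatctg

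The H689A/F667I-only class was much the larger with all peaks, and the gap narrowed to less than a factor of 2 with equal numbers. From equal numbers of peaks, 39920 regions were formed, of which 1223 were Y641F-only (3.06%), 1941 were H689A/F667I-only (4.86%) and 14926 were shared. The strict class held 130 Y641F-only and 1396 H689A/F667I-only regions. Of the 1223 Y641F-only regions formed from equal numbers, 826 (67.5%) had a weaker peak in both full H689A/F667I lists, 267 (21.8%) in 1 of them and 130 (10.6%) in neither. Most of that class was thus called open in all 4 libraries and differed in rank. Of the 1941 H689A/F667I-only regions, 544 (28.0%) had a weaker peak in Y641F replicate 2 and 1397 (72.0%) in neither Y641F list. None could have a weaker peak in Y641F replicate 1, whose full list was already in use. The class sizes also moved with each library, as replicates of a line shared 50.9% of the regions open in either Y641F library and 58.9% of those open in either H689A/F667I library.

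**Figure D1:**
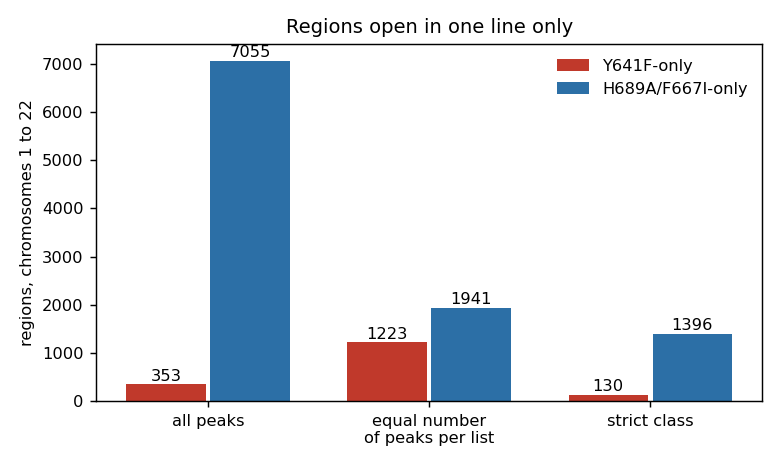
Number of regions on chromosomes 1 to 22 (y axis) that were Y641F-only or H689A/F667I-only with all peaks, with an equal number of peaks per list and in the strict class (x axis). The bars run from 353 against 7055 regions with all peaks to 1223 against 1941 with equal numbers and 130 against 1396 in the strict class.

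With all peaks, the peaks found only in one line were weaker in that line than its shared peaks. In the Y641F-only regions the median percentile of -log10 p within the list, where the strongest peak has the highest percentile, was 20.2 in Y641F replicate 1 and 20.7 in replicate 2. In the H689A/F667I-only regions it was 35.7 and 36. Shared regions had medians of 61.2, 70.7, 76.2 and 77.2 in the 4 lists. Median fold enrichment of pileup over local background, on the linear scale of the peak caller, was 3.22 and 3.26 in Y641F-only regions and 3.54 and 3.52 in H689A/F667I-only regions. In the classes from equal numbers the median percentiles were 29.9 and 42.5 for Y641F-only and 62.0 and 62.0 for H689A/F667I-only regions, a gap that the rule itself favours, as its limit lay at a higher -log10 p in the H689A/F667I lists.

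The WT and A677G libraries had no part in forming the classes. Counted with all peaks, both WT libraries were open at most H689A/F667I-only regions and at a minority of Y641F-only regions. Both A677G libraries were open at a minority of either class. A peak in both WT libraries was found in 76.8% of the 7055 H689A/F667I-only regions (95% Wilson interval 75.8 to 77.8) and in 32.6% of the 353 Y641F-only regions (27.9 to 37.6), against 62.8% of all regions. Wilson intervals here cover counting error only. Neither WT library had a peak in 41.9% of the Y641F-only regions and in 7.31% of the H689A/F667I-only regions. Both A677G libraries had a peak in 13.6% of the Y641F-only regions (10.4 to 17.6) and in 32.6% of the H689A/F667I-only regions (31.6 to 33.7), against 42.9% of all regions. A total of 117 Y641F-only regions (33.1%) and 369 H689A/F667I-only regions (5.23%) had no peak in any WT or A677G library. The order of the classes was the same with equal numbers of peaks. Both WT libraries were then open at 16.1% of Y641F-only and 43.3% of H689A/F667I-only regions, against 50.1% of all regions. Both A677G libraries were open at 19.1% and 32.0%, against 48.8% of all regions. For WT, the H689A/F667I-only share thus lay above that of all regions with all peaks and below it with equal numbers. The order of the classes was also the same in the strict class, with 46.9% and 90.1% for WT and 17.7% and 51.4% for A677G. The order held without either Y641F library but turned without either H689A/F667I library, in both settings. Without H689A/F667I replicate 1, all peaks gave 53.1% of Y641F-only and 48.9% of H689A/F667I-only regions for WT, and 26.8% and 16.6% for A677G. Without replicate 2 these shares were 55.6% and 49.5%, and 28.0% and 17.0%. Leaving out a library also loosened the rule for its line, which then asked for a peak in the remaining library only. The H689A/F667I-only class grew from 7055 to 17332 and 16705 regions in these cases. The turn can therefore not be assigned to a library rather than to the looser rule. The WT lists were the longest of the series, with 62739 and 60420 peaks, and the part of list length in these shares with all peaks was not tested.

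**Figure D2:**
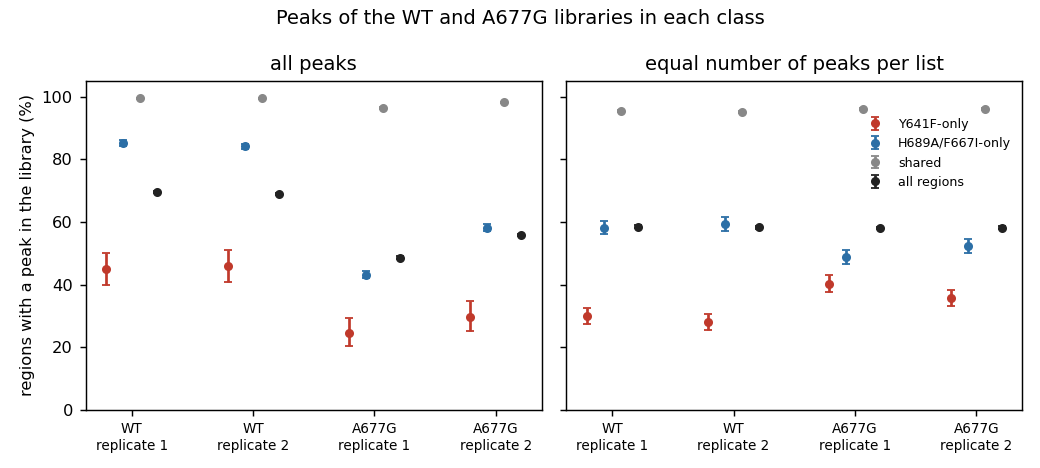
Share of regions (y axis, %) with a peak in each WT and A677G library (x axis) for Y641F-only, H689A/F667I-only, shared and all regions, with all peaks (left) and with an equal number of peaks per list (right), and bars for 95% Wilson intervals. In WT replicate 1 the share with all peaks was 44.8% of Y641F-only, 85.3% of H689A/F667I-only, 99.5% of shared and 69.6% of all regions.

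Both classes lay mostly in introns and between genes. Promoters held 11.3% of the Y641F-only regions (8.43 to 15.1) and 16.0% of the H689A/F667I-only regions (15.2 to 16.9), against 56.7% of shared regions and 25.3% of all regions. Introns held 43.3% and 35.8%, intergenic sequence 39.4% and 41.8%, and exons 5.95% and 6.27% of the 2 classes. Outside promoters the median distance to the nearest start site was 27 kb for Y641F-only and 20.9 kb for H689A/F667I-only regions. With equal numbers of peaks the order of the promoter shares turned, to 26.5% of the Y641F-only regions (24.1 to 29.0) and 18.9% of the H689A/F667I-only regions (17.2 to 20.7). That order turned back without either Y641F library, where the Y641F-only class asked for a peak in the remaining Y641F library only. The shares were 17.6% against 21.6% without Y641F replicate 1 and 14.6% against 20.9% without Y641F replicate 2. No direction of promoter use between the lines can therefore be given.

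Among the 13 strict Y641F-only promoter regions, the strongest by mean percentile lay at UBE2E3, a ubiquitin-conjugating enzyme. This 227 bp region (chr2:180983836-180984062) ranked 5253 and 8392 in the Y641F lists, where rank 1 is the strongest peak, and 15787 and 21725 in the WT lists, and had no peak in the H689A/F667I and A677G lists. The next lay at RPL17, a protein of the large ribosomal subunit, with ranks of 3976 and 15111 in the Y641F lists and of 45886 and 24538 in the WT lists. A region of 1146 bp at JUND, an AP-1 transcription factor, ranked 13886 and 14412 in the Y641F lists. The region at NPTX1, a secreted neuronal pentraxin, ranked 17218 and 12982 and had no peak in any of the other 6 libraries, and that at INHBE, an inhibin subunit of the TGF-beta family, ranked 8314 and 24749 and had none either. UBE2E3, JUND and INHBE each had another promoter peak in both H689A/F667I libraries, so that the gene as a whole was open in both lines, whereas RPL17 had none. Also in the group were regions at ARAP2, RABGAP1L, CD81, CLIP1, ZFTRAF1, CDK18 and SNTB1.

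Outside promoters the strict Y641F-only regions led with the 3 windows shown above. The LASP1 region, near a gene for an actin-binding protein, ranked 3963 and 10724 in the Y641F lists and 49749 and 47229 in the WT lists. The CDC14A region, in a gene for a cell cycle phosphatase, ranked 6928 and 9290 and had no peak in the other 6 libraries. The ADAMTSL1 region, in a gene for a secreted matrix protein, ranked 6876 and 10198 in the Y641F lists, and 5531 and 41622 in the WT lists, which disagreed with each other. A region in PTPRK, a receptor tyrosine phosphatase, ranked 11494 and 14537 and was likewise closed in the other 6 libraries. Further regions lay in introns of LRP1B, ITPR2, ECE1 and NEK7 and nearest to GRAMD2B, CDH6, MTF2 and ABCA1. The region nearest to CDH6 was 1978485 bp from its start site, and the CDH6 promoter itself belonged to the opposite class.

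The strict H689A/F667I-only promoter regions numbered 215. The strongest lay at SCRIB, a cell polarity scaffold, with ranks of 2519 and 4035 in the H689A/F667I lists, of 18277 and 15062 in the WT lists and of 6319 and 10941 in the A677G lists. The region at SLC38A4, an amino acid transporter, ranked 2703 and 5494 in the H689A/F667I lists and between 8815 and 10740 in the 4 WT and A677G lists. The region at NELFB, a subunit of the negative elongation factor of RNA polymerase II, ranked 5080 and 9892, and that at PPP1R3A, which targets a phosphatase to glycogen, ranked 5115 and 9140. The region at AHRR, the repressor of the aryl hydrocarbon receptor, ranked 2568 and 13193. All 12 regions named by this rule, the others being CABIN1, PLEKHH3, DNAJB13, GLI4, CD300LG, C7orf50 and SHD, had a peak in all 4 WT and A677G lists. CABIN1 and C7orf50 had another promoter peak in all 4 libraries of the compared lines.

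Of the strict H689A/F667I-only regions outside promoters, the strongest lay 143688 bp from TRHR, the thyrotropin-releasing hormone receptor, with ranks of 4625 and 2856 in the H689A/F667I lists. The KLHDC7B region ranked 3334 and 6461, the SCAMP4 region 2321 and 7616, and the IL4R region, near the interleukin 4 receptor, 7263 and 3547. The SCAMP4 region ranked 3531 and 2832 in the A677G lists. The intronic region of PRKG1, a cGMP-dependent kinase, ranked 6973 and 4937, and the exonic region of DBN1, the actin-binding protein drebrin, ranked 5830 and 7177. Regions in or nearest to SORCS1, MAP2K3, TNIK, FAM118A, ISM1 and ELOA completed the group.

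At the level of genes, a promoter was counted open when any peak lay within 1 kb of any start site of the gene. Of 19103 protein-coding genes, 11456 were open in all 4 libraries, 15 (0.0785%) only in the Y641F line and 589 (3.08%) only in the H689A/F667I line. The 15 comprised F13B, the B subunit of coagulation factor XIII, TRIM54, CAVIN2 of caveolae, the fatty acid receptor CD36, GSDMC, ZFTRAF1, the tetraspanin CD81, EMP1, SOX15, the ribosomal protein genes RPL19 and RPL17, the read-through gene RPL17-C18orf32 that shares the RPL17 promoter, MEX3D, JSRP1 and ENSG00000273734, which overlaps JSRP1. Their peaks ranked between 3976 and 25050 in Y641F replicate 1 and between 15111 and 34176 in replicate 2. CD36 ranked 22714 and 18492 in the Y641F lists and SOX15 20720 and 29648, with no peak in the other 6 libraries for either. Both WT libraries had a promoter peak at 8 of the 15 genes and at 511 of the 589 (86.8%, 83.8 to 89.3).

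Among the developmental gene lists, the share of promoters open only in the H689A/F667I line lay above that of all genes for some lists and near it for others. Of 30 WNT ligands and antagonists, 6, against 3.08% of all genes, belonged to this class, the ligands WNT4, WNT7A, WNT8A, WNT10A and WNT16 and the antagonist SFRP5. WNT10A ranked 19519 and 22569 in the H689A/F667I lists and had no Y641F peak. WNT4 ranked 27042 and 38672, and WNT16 ranked 28549 and 35173. The WNT4 promoter was stronger in the A677G lists, with ranks of 19077 and 17157. Only WNT10A of the 6 kept the class with equal numbers of peaks, where 2 of the 30 (6.67%), WNT10A and DKK3, were H689A/F667I-only and as many, WNT5A and DKK2, were Y641F-only.

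Of 61 GATA, SOX, TBX and FOX factors, 7 (11.5%) were H689A/F667I-only, namely SOX8, SOX30, TBX10, FOXA1, FOXA2, FOXE1 and FOXK1, and SOX15 was Y641F-only. FOXA1, a pioneer factor of endoderm, ranked 38729 and 32243, and FOXA2 ranked 43981 and 45412, close to the end of both lists. Of 39 HOX genes, 20 were open in all 4 libraries, 10 in none, and HOXA5 and HOXB2 (5.13%) only in the H689A/F667I line, with ranks of 44845 and 40197 for HOXA5. Of 73 other developmental homeobox genes, 48 were open in all 4 libraries, and PAX1 was among those open only in the H689A/F667I line, whose share of 2.74% was below that of all genes. None of these HOX, homeobox or FOX genes remained in the class with equal numbers of peaks.

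Of 25 subunits of the chromatin remodeller SWI/SNF, 3 were H689A/F667I-only, against 3.08% of all genes, namely SMARCD3, BRD7 and ACTL6B. SMARCD3 ranked 14132 and 17267 in the H689A/F667I lists and kept its class with equal numbers of peaks. It was then the only H689A/F667I-only gene of the 25, against 1.24% of all genes. Among 49 axon guidance genes, the receptors UNC5A and PLXNC1 and the ligand SLIT1 were in this class (6.12%). Of these, SLIT1, with ranks of 14760 and 25257, kept it. Further genes of the class were the cadherins CDH6 and PCDH17 of 39 (5.13%) and the collagens COL6A1 and COL18A1 of 46 integrins and collagens (4.35%). The potassium channel KCND3, from a list with 4.44% in the class, and the glutamate receptor GRIN1, from neuronal identity genes with 6.06%, were others. Each of these 4 shares lay above the 3.08% of all genes but rested on 2 genes. None of the 6 genes named kept the class with equal numbers of peaks. RPS15, of the small ribosomal subunit, was the strongest of the listed genes in the class, with ranks of 8888 and 9497 in the H689A/F667I lists, between 9804 and 11029 in the WT and A677G lists, and no peak in either Y641F list. A list of shared targets of both gain-of-function mutants was taken from the study, which chose it on these samples, so that it is no independent evidence of a direction. Of its 108 genes, 97 were open in all 4 libraries, FGFBP1 and WNT16 (1.85%, against 3.08% of all genes) were H689A/F667I-only and none was Y641F-only. Counted with equal numbers, none was H689A/F667I-only, against 1.24% of all genes. NRCAM and NTN4 were Y641F-only (1.85%, against 1.13% of all genes).

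With equal numbers of peaks the gene classes were nearly the same size, 215 Y641F-only genes (1.13%) and 237 H689A/F667I-only genes (1.24%). Only 6 of the 15 and 107 of the 589 genes named by all peaks were among them. Of the 215, 192 (89.3%, 84.5 to 92.8) had a weaker promoter peak in both H689A/F667I lists, and 210 had a peak in both WT lists. Most of these genes were therefore open in both lines and ranked higher in Y641F, whereas 6 (2.79%) had no peak of any rank in the H689A/F667I line. Of the 237, 107 (45.1%) had no peak of any rank in the Y641F line, where only replicate 2 could hold a weaker one.

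Ribosomal protein genes stood out in count, with 6 of 74 (8.11%, against 1.13% of all genes) Y641F-only and RPS15 and RPS16 H689A/F667I-only. RPL23 ranked 9978 and 15023 in the Y641F lists and 28598 and 29726 in the H689A/F667I lists, and RPL32 ranked 14989 and 12233 against 31238 and 43496. RPL12, RPL38 and RPL17 were also among the 6. Growth factor receptors were the other list with several members, 4 of 34 (11.8%). The platelet-derived growth factor receptor PDGFRA ranked 11601 and 10343 in the Y641F lists, had no peak in H689A/F667I replicate 1 and ranked 35012 in replicate 2. The vascular endothelial growth factor receptor FLT1 ranked 16289 and 18191 against 31690 and 39157. IGF1R was close to the limit, with 19428 and 22054 against 25609 and 25597, and DDR1 ranked 24387 and 16838 against 35251 and 31310.

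Of the Polycomb and related genes, 2 of 20 PRC1 subunits were Y641F-only with equal numbers, against 1.13% of all genes, and none with all peaks. They were RYBP and KDM2B, both of non-canonical PRC1. RYBP ranked 16679 and 20227 in the Y641F lists and 33592 and 27547 in the H689A/F667I lists. KDM2B, which recruits PRC1 to unmethylated CpG islands, ranked 18763 and 16737 against 26530 and 30376. NSD1, an H3K36 methyltransferase, ranked 24623 and 25221 against 30783 and 31893, and both Y641F ranks were near the limit. WNT5A ranked 16476 and 12165 against 28075 and 33378, and its antagonist relative DKK2 8931 and 10379 against 33717 and 34939. WNT10A and DKK3 were on the opposite side. WT1, a zinc finger regulator of kidney development, ranked 21557 and 21856 against 31478 and 25807.

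**Figure D3:**
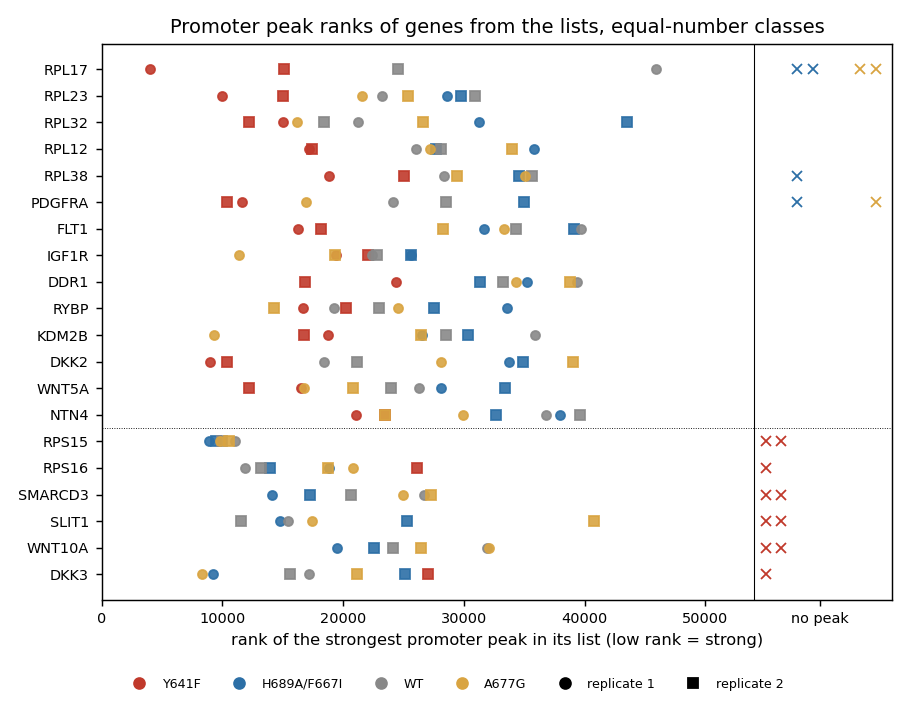
Rank of the strongest promoter peak in each library's list (x axis, low rank is strong) for genes of the ribosomal protein, growth factor receptor, PRC1, WNT, axon guidance and SWI/SNF lists that were Y641F-only (above the dotted line) or H689A/F667I-only (below it) with equal numbers of peaks, with crosses for no peak. DKK2 ranked 8931 and 10379 in the Y641F libraries and 33717 and 34939 in the H689A/F667I libraries, whereas RPS15 ranked 8888 and 9497 in H689A/F667I and had no Y641F peak.

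All 13 PRC2 subunit genes examined were open in all 4 libraries, including EZH2 itself, whose promoter ranked 4117 and 5338 in the Y641F lists and 13106 and 8140 in the H689A/F667I lists. EZH1, the paralogue of EZH2, ranked 7307 and 8049 against 3302 and 3573. The EZH2 construct does not contain this promoter, so that these ranks do not check the identity of the lines. Of the markers of embryonic kidney, PAX2, LHX1 and EYA1 were open in all 4 libraries, CDH6 only in the H689A/F667I line and PAX8 in neither, although both WT libraries had a PAX8 peak. Of 6 blood markers none was open in all 4 libraries, and PTPRC, CD3E, SPI1 and HBB were closed in all 4. The liver genes ALB and APOA1 were closed in all 4 as well.

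Promoters open in all 4 libraries also changed places in the order of strength. Of 10842 shared promoter regions, both Y641F ranks were stronger than both H689A/F667I ranks at 2847 (26.3%), and the reverse held at 2038 (18.8%). By percentile within the list, which depends on list length, the order turned, with 692 (6.38%) and 4913 (45.3%), so that these counts give no direction between the lines. The median gap between replicates was 2543 ranks for Y641F and 2342 for H689A/F667I. The glycolytic enzyme gene TPI1 ranked 3701 and 3507 in the Y641F lists and 27793 and 29076 in the H689A/F667I lists. The promoter of ADM, which encodes the peptide hormone adrenomedullin, ranked 2771 and 8163 against 26873 and 32289, and that of ARMC3 4571 and 14597 against 39385 and 41959. CHPT1 and PROSER1 were also on this side. In the opposite direction, USP34, a deubiquitinase, ranked 20772 and 31160 in the Y641F lists and 3833 and 3759 in the H689A/F667I lists, and TFDP1, the dimerisation partner of E2F factors, ranked 19996 and 26299 against 6603 and 4103. TRMT10B, TM7SF3, NACC2 and SPTBN4 made up the rest. For USP34, TRMT10B, TFDP1 and SPTBN4 the WT ranks, between 3253 and 8926, were on the H689A/F667I side, as were those of NACC2, 16502 and 16821. Those of TM7SF3, 20633 and 31384, were near its Y641F ranks of 21538 and 30433. Of the genes ranked higher in Y641F, TPI1 (33294 and 38690) and ADM (25525 and 25107) had WT ranks on the H689A/F667I side. The WT ranks of ARMC3 and PROSER1 lay between the lines, and those of CHPT1, 50986 and 13742, disagreed.

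Genes with many regions of a class were long genes. AUTS2, a neurodevelopmental gene whose product takes part in a non-canonical PRC1 complex, held 11 H689A/F667I-only regions of its 53 regions over 1195.2 kb. GSE1 held 9 of 41 over 507 kb, CNTNAP2 8 of 51, GMDS 8 of 46 and the guidance ligand gene SLIT3 7 of 28. DIP2C held 6 of 26, tied with RGL1 (6 of 19), ENSG00000285708 (6 of 36) and PCDH9 (6 of 93). The class made up 10.6% of all regions, and PCDH9 lay below that share. No gene held more than 2 Y641F-only regions, a class of 0.531% of all regions. Those with 2 included ARID1B, GPC5, KLF12, MYCBP2, NKAIN2, PTPRK, AGBL3 and SOS1. Among equal numbers of peaks, GSE1 led with 6 of 25 H689A/F667I-only regions, against 4.86% of all regions. RPTOR, a component of the mTORC1 kinase complex, followed with 5 of 11. On the other side PCDH9, a protocadherin of 928 kb, held 4 Y641F-only regions of 52, and AUTS2 held 3 of 24, against 3.06% of all regions. As these genes were chosen by their counts, the shares describe them and test nothing. AUTS2 thus led with all peaks in one class and had members of the other with equal numbers.

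The classes differed in base composition once the lists had equal numbers of peaks. Outside promoters, the median GC content of the 300 bp around the centre was 47.0% in Y641F-only and 51.0% in H689A/F667I-only regions, against 49.7% in all regions. The order held without each of the 4 libraries in turn, with medians from 47.3% to 49.7% for Y641F-only and from 49.0% to 51.3% for H689A/F667I-only regions. Among regions of under 35% GC, 7.1% were Y641F-only and 3.74% were H689A/F667I-only, whereas at 65% to 70% GC these shares were 2.09% and 7.14%. With all peaks the medians were 49.3% and 48.7%, in the opposite order. Over whole libraries with equal numbers, mean GC outside promoters was 51.3% in both Y641F libraries and 51.8% and 51.5% in the H689A/F667I libraries (exact permutation p = 0.33). The part of base composition during amplification was not tested.

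**Figure D4:**
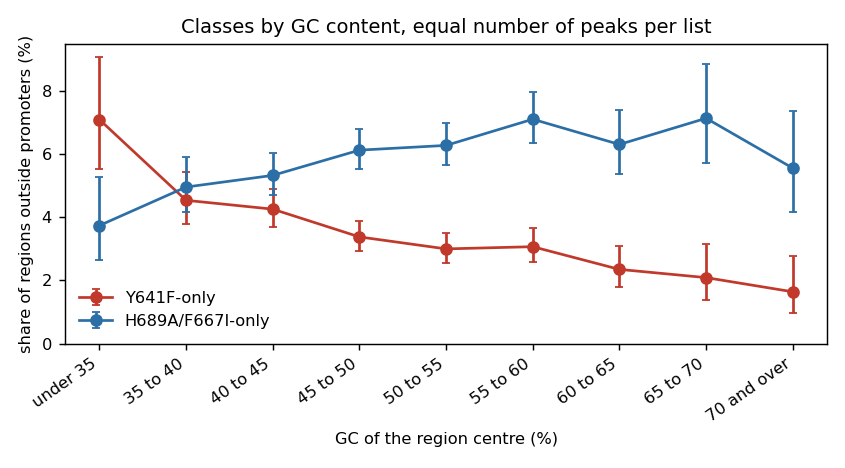
Share of regions outside promoters (y axis, %) that were Y641F-only or H689A/F667I-only, by GC content of the 300 bp around the region centre (x axis, %), with an equal number of peaks per list and bars for 95% Wilson intervals. The Y641F-only share fell from 7.1% under 35% GC to 1.64% at 70% and over, and the H689A/F667I-only share was 3.74% and 5.56% in the same bins.

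Letters matching the binding motif of CTCF, the insulator protein that anchors chromatin loops, were more frequent in H689A/F667I-only regions. With equal numbers of peaks, a match on either strand was found in 9.27% of H689A/F667I-only regions (8.06 to 10.6), in 3.52% of Y641F-only regions (2.62 to 4.70) and in 4.88% of all regions. With all peaks the shares were 5.98%, 1.98% and 3.68%. Y641F replicate 1 stood apart from the other libraries in this measure. A match lay in 4.89% of its peaks outside promoters with equal numbers, against 8.24% in Y641F replicate 2, 8.82% and 8.51% in the H689A/F667I libraries and between 8.92% and 10.3% in the WT and A677G libraries. Without Y641F replicate 1 the class shares were 5.74% for Y641F-only (5.06 to 6.5) and 8.26% for H689A/F667I-only regions (7.28 to 9.36), so that the order remained and the gap narrowed. In the strict class they were 5.38% (2.63 to 10.7) and 10.2% (8.76 to 11.9).

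Windows of 120 bases around such matches, with the match in capitals, are shown for 3 strong strict H689A/F667I-only regions with a match outside promoters and for a Y641F-only one. They were chr16:88737433-88737552 in PIEZO1, a mechanosensitive channel gene of which the region also touches an exon, chr16:4330418-4330537 in an intron of GLIS2, chr5:177561382-177561501 nearest to FAM193B and, for Y641F-only, chr1:93062329-93062448 nearest to MTF2, on the plus strand of GRCh38. Their ranks in the H689A/F667I lists were 3322 and 11506, 12285 and 7361, and 7102 and 12705, and the MTF2 region ranked 14659 and 10996 in the Y641F lists.
PIEZO1 region: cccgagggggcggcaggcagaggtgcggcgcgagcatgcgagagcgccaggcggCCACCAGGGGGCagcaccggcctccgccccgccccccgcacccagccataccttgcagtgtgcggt
GLIS2 region: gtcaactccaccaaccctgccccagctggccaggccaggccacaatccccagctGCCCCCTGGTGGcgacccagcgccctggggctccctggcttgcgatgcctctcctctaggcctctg
FAM193B region: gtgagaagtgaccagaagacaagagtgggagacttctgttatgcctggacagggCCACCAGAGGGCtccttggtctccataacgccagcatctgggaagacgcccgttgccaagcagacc
MTF2 region: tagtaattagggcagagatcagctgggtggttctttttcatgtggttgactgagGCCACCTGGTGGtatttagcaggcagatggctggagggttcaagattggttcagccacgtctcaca

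Of the other 12 motifs searched on both strands, ZIC (CAGCAGG) matched 20.3% of the H689A/F667I-only and 11.3% of the Y641F-only regions with equal numbers of peaks, against 15.0% of all regions. All peaks gave 18.0% (17.1 to 18.9) and 16.4% (12.9 to 20.7) for this motif. The GC box of SP and KLF factors (GGGCGG) matched 24.9% and 21.9%, both below the 31.0% of all regions and the 50.7% of shared regions, which hold more promoters. Outside promoters it matched 18.3% (16.5 to 20.3) of the H689A/F667I-only regions, above the 14.7% of all regions there. For Y641F-only regions outside promoters the share was 10.0% (8.22 to 12.1), below it. Over all places again, the other motifs follow. TEAD (CATTCCA) matched 4.64% and 6.05%, and AP-1 (TGANTCA) matched 9.74% and 10.7%. In the strict class, the homeodomain core (TAATTA) matched 14 of 130 Y641F-only regions, 10.8% (6.52 to 17.3), and 5.44% of the H689A/F667I-only regions (4.37 to 6.76). This order turned with all peaks, to 5.67% and 6.32%, and the shares were 6.30% and 5.26% with equal numbers. A match is a description of the letters and not of binding.

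Chromosome 13 had the highest share of Y641F-only regions and the lowest of H689A/F667I-only regions, and chromosome 19 the reverse. With equal numbers of peaks, Y641F-only regions made up 4.91% of the regions of chromosome 13, 4.76% of chromosome 18 and 3.73% of chromosome 4, and 1.11% of chromosome 19 and 1.14% of chromosome 22. H689A/F667I-only regions made up 8.89% of the regions of chromosome 19, 8.44% of chromosome 16 and 7.96% of chromosome 20, and 2.53% of chromosome 13. Over the 22 chromosomes, the median GC of a chromosome's regions correlated with the Y641F-only share (r = -0.864, rho = -0.875) and with the H689A/F667I-only share (r = 0.879, rho = 0.810). The chromosomes share the same 4 libraries, and these correlations are descriptions. The share of all peaks on chromosome 13 with equal numbers was 3.71% and 2.92% in the Y641F libraries and between 2.41% and 2.59% in the other 6. On chromosome 19 it was 3.69% and 4.14% in the Y641F libraries and between 4.75% and 5.06% in the other 6. Both Y641F libraries thus lay outside the range of the other lines on these chromosomes, replicate 1 the farther. Copy number of the lines was not measured here, and its part in these shares was not tested.

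**Figure D5:**
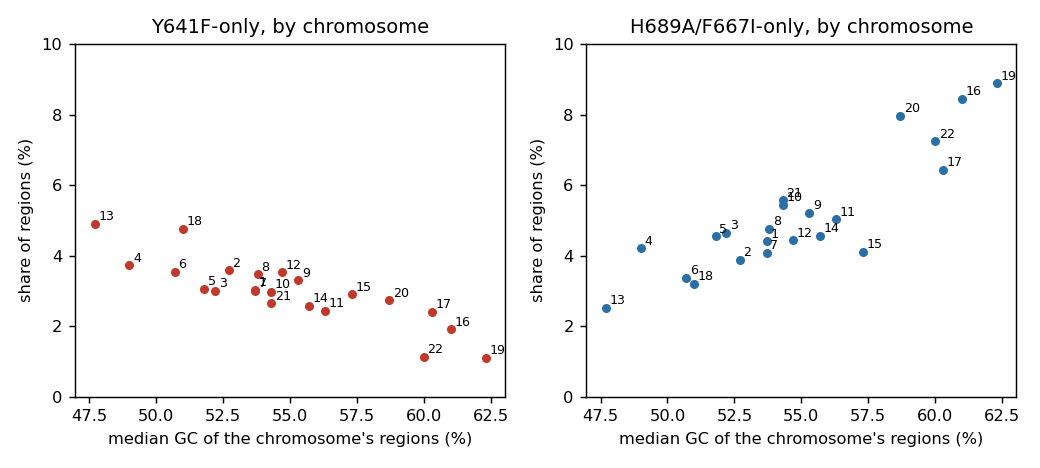
Share of a chromosome's regions (y axis, %) that were Y641F-only (left) or H689A/F667I-only (right) against the median GC of its regions (x axis, %), with an equal number of peaks per list and a labelled point for each of the 22 chromosomes. Chromosome 13 had 4.91% Y641F-only and 2.53% H689A/F667I-only regions, and chromosome 19 had 1.11% and 8.89%.

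At finer scale, the windows of 10 Mb richest in H689A/F667I-only regions lay near chromosome ends. The highest shares with equal numbers were found from 60 Mb of chromosome 20, with 11 of 79 regions (13.9%), at 130 to 140 Mb of chromosome 9, with 28 of 208 (13.5%), in the first 10 Mb of chromosome 16, with 32 of 239 (13.4%), and from 130 Mb of chromosome 10, with 8 of 61 (13.1%). Y641F-only regions were most frequent at 60 to 70 Mb of chromosome 4, with 6 of 58 (10.3%), 100 to 110 Mb of chromosome 5, with 9 of 101 (8.91%), and 180 to 190 Mb of chromosome 2, with 12 of 139 (8.63%). Of 268 windows with at least 50 regions, the Y641F-only share was the higher in 86 and the H689A/F667I-only share in 151.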

How the data were processed

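The authors trimmed reads with Trim Galore 0.6.5, aligned them to GRCh38/hg38 with BWA 0.7.17, removed duplicates with Samtools and called broad peaks in each library with MACS2 2.2.7.1. Transposase shift and depth are not given in the sources used here. The deposited lists give a fold (ratio of pileup to local background), a -log10 p, a -log10 q and a display score for each peak, made by the authors within each list. The score was not used. As no read counts were used, values were ranked only within a list.

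Peaks on chromosomes 1 to 22 were joined and classified with Python 3.11.15, pandas 2.3.3 and pysam 0.24.0, and library values were compared by exact permutation (scipy 1.17.1). Genes came from GENCODE 44, and groups from the sample titles. The classification was tested on simulated lists. The classes, gene lists, markers, motifs and comparisons were chosen with earlier results of these data known. Named regions were the 12 strongest promoter and 12 strongest other regions of each strict class by mean percentile of -log10 p. Named genes were up to 6 per list and class, the 6 with most regions of a class and the 6 largest rises and falls at shared promoters. Sequence windows came from strong strict regions and hold no exon base of a protein-coding gene. Repeat content was not computed. Some genes that these rules name are not reported here.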

Additional observations from a re-analysis of the deposited data

Results flagged for a closer look

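Chromosome X was left out of the comparisons, and its peaks carried both classes. With all peaks, 17 regions of chromosome X were Y641F-only and 208 were H689A/F667I-only, which is 0.750% and 9.18% of its 2266 regions. With an equal number of peaks per list, 57 were Y641F-only and 50 were H689A/F667I-only, 4.18% (95% Wilson interval 3.24 to 5.38) and 3.67% (2.79 to 4.80) of 1364 regions. On the chromosomes compared above, the Y641F-only and H689A/F667I-only shares were 0.531% and 10.6% with all peaks. With an equal number of peaks per list they were 3.06% and 4.86%. All 4 counts of chromosome X exceeded the limit of 3 that a count of 0 allows. That limit does not test whether chromosome X differed from the other chromosomes.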

How the results depend on the processing

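Presence of a peak depends on the threshold of each list, and list length and openness cannot be told apart without read counts. The alternatives were an equal number of peaks per list, the same on chromosomes 1 to 22, a -log10 q of at least 5, other promoter widths, the strict class and leaving out each library. Leaving out libraries for the CTCF shares and comparing shared promoters by rank were added after seeing the data.

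The Y641F-only count was 353 with all peaks, 1223 with equal numbers, 1225 with equal numbers on chromosomes 1 to 22, 79 at the q threshold, 130 in the strict class and 702 to 5142 without 1 library. The H689A/F667I-only count was 7055, 1941, 1929, 2714, 1396 and 8135 to 17332. Members changed as well as counts. Of the 353 Y641F-only regions with all peaks, 130 (36.8%) overlapped that class with equal numbers and 1 (0.283%) at the q threshold. Of the 7055 H689A/F667I-only regions, 1396 (19.8%) and 192 (2.72%) did. Without Y641F replicate 1, Y641F replicate 2, H689A/F667I replicate 1 and H689A/F667I replicate 2 the Y641F-only counts were 5142, 3207, 702 and 754, and the H689A/F667I-only counts 8135, 14250, 17332 and 16705. Joining peaks under 1 kb apart, or counting only peaks covering 50% of a region, kept both counts within a factor of 1.5.

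Promoter shares with equal numbers, the q threshold, 500 bp and 2 kb were 26.5%, 44.3%, 7.93% and 15.3% for Y641F-only and 18.9%, 46.7%, 13.4% and 20.5% for H689A/F667I-only regions, and 8.20% to 12.1% and 12.1% to 19.7% without 1 library. Shares open in both WT libraries with equal numbers, the q threshold and the strict class were 16.1%, 55.7% and 46.9%, and 43.3%, 84.7% and 90.1%, with 10.2% to 55.6% and 48.9% to 85.5% without 1 library. Shares open in both A677G libraries were 19.1% with equal numbers and 17.7% in the strict class for Y641F-only and 51.4% in the strict class for H689A/F667I-only regions, with 3.02% to 28.0% and 16.6% to 50.8% without 1 library. For WT and for A677G the order of the classes turned without either H689A/F667I library. Gene counts with equal numbers and the q threshold were 215 and 35 for Y641F-only and 237 and 1282 for H689A/F667I-only, with 31 to 123 and 695 to 1782 without 1 library.

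CTCF shares without 1 library were 0.592% to 3.28% for Y641F-only and 4.44% to 6.74% for H689A/F667I-only regions. With equal numbers they were 3.52% and 9.27%, and, leaving out the libraries in the order above, 5.74%, 1.52%, 4.31% and 3.59%, and 8.26%, 9.76%, 8.66% and 8.86%. The cause of these movements was not tested. With the replicate number as a replicate block, the differences of -0.64 in log2 peak number, -0.71 in log2 covered length and 9.70 points in promoter share stayed as they were, with an exact permutation p of 0.50. Without 1 library they ranged from -0.878 to -0.402, from -0.990 to -0.425 and from 5.85 to 13.5.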
